A study of Mus musculus with 16 samples.

Results

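The complement genes C1qa, C1qb, C1qc, C1ra, C4b, C3, Serping1, C3ar1 and C5ar1 were examined in mouse hypothalamus. They were taken as every non-control probe whose gene name in the scanner files was one of these 9, which gave 12 probes of the 55681 on the array and 9 genes of 34607 named. C1ra, C3 and Serping1 had 2 probes each, and the other genes had 1. Total RNA from the hypothalamus of 16 mice was labelled with Cy3 and hybridised to 1-colour Agilent arrays, 1 mouse per array, 8 KO chimera and 8 control. KO chimeras were lethally irradiated (950 Rad) C57BL/6J recipients of whole marrow from the Adrb1tm1BkkAdrb2tm1Bkk/J strain, whose cells lack the beta-1 and beta-2 adrenergic receptors. The marrow was given in 1 retro-orbital injection, with knockout and C57BL/6J at 1 to 4, and the mice recovered for 2 to 3 months before tissue collection. The labels do not say whether that ratio counts donors per recipients or cells in mixed marrow. If it counts donors, KO chimeras shared donors. The controls are labelled as control mice. The labels repeat the transplant text and the irradiated C57BL/6J strain for all 16 mice, but name a marrow donor only for the KO chimeras. Whether the controls were irradiated and given other marrow, or left alone, is therefore not settled. Age and sex are not in the labels used here. The deletion was carried by donor marrow, in full or in part, and the brain's own cells in the KO chimeras carried the receptors intact.

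Complement is a cascade of blood and tissue proteins that marks targets for removal. In the classical pathway C1q, built of A, B and C chains encoded by C1qa, C1qb and C1qc, binds a target and activates the proteases C1r and C1s, which cleave C4 and C2. The resulting enzyme cleaves C3, whose fragments coat the target or signal through receptors such as C3aR, and the C5a fragment signals through C5aR1. C1 inhibitor, encoded by Serping1, blocks C1r and C1s. In the brain, microglia are the main source of C1q, and C1q and C3 are known for tagging synapses that microglia engulf.

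Probes of genes that differed in opposite directions are shown to fix which stretch was read. Those of C1qc and C4b and Serping1 probe 1 are given by position only. All are 60 bases long and read 5′ to 3′ on the minus strand of mm9, the build in the file headers. The C1qa probe lies at chr4:136452409-136452468, the C1qb probe at chr4:136436578-136436637 and the C1qc probe at chr4:136445766-136445825, so the probes of the 3 C1q genes lie within 15891 bases of each other. C3 probe 1 lies at chr17:57343678-57343737 and C3 probe 2 at chr17:57343416-57343475. Serping1 probe 2 is aligned from 84605968 to 84607474 on chromosome 2, a span of 1507 bases, and thus joins 2 separated stretches of the genome. Serping1 probe 1 lies at chr2:84605663-84605722.
C1qa: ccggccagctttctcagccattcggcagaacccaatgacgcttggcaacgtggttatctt
C1qb: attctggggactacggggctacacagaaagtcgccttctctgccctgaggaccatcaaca
C3 probe 1: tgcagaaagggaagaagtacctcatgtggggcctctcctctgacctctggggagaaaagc
C3 probe 2: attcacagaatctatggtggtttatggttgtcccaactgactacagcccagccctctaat
Serping1 probe 2: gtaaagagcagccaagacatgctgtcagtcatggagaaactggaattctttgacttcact

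The other probes were those of C4b at chr17:34865328-34865387, C3ar1 at chr6:122798222-122798281 and C5ar1 at chr7:16832243-16832302, all on the minus strand. C1ra probe 1 lies at chr6:124473052-124473111 and C1ra probe 2 at chr6:124472674-124472733, on the plus strand. The accessions of the C4b probe also include C4a, a near-identical neighbouring gene, so the signal called C4b here may hold both.

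The promoters of C1qb and C1qc are shown because these neighbouring genes both had a negative difference, although neither passed the test over all probes. They are the RefSeq windows of GRCm38.p6 that run from 250 bases before the gene's start to 50 after it, on the minus strand, at chr4:136886151-136886450 for C1qb and chr4:136892865-136893164 for C1qc. RefSeq windows were matched for 6 of the 9 genes. Capitals mark GAGGAA or its reverse complement TTCCTC, the core motif bound by PU.1, a transcription factor of myeloid cells.
C1qb promoter: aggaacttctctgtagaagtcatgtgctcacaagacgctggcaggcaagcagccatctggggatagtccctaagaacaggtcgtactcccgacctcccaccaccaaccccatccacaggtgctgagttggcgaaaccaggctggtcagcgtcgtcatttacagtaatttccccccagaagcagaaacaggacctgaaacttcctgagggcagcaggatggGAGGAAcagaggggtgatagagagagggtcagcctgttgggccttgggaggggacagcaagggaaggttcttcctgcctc
C1qc promoter: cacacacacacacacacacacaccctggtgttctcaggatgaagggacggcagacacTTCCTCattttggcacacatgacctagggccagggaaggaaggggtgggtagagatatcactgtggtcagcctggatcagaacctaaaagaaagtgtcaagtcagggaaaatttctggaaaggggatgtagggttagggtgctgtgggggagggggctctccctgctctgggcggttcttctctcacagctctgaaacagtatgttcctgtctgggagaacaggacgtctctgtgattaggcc

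GAGGAA begins at position −30 from the start of C1qb. In C1qc it lies on the opposite strand, at position −193. C1ra also held it, at position 44 on the opposite strand, and the windows of C3, C3ar1 and C5ar1 did not. On either strand it was found in 28.28% of 32851 promoter windows of the same length, so these matches describe the sequences only.

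Genes for the chains of C1q and C4b had lower signal in KO chimeras, while C3 and Serping1 had higher signal, all by less than 0.4 on the log2 scale. None of the 10 probes bright enough to test passed an adjusted p of 0.05 over all probes. C1qc, a chain of the initiating complex, came closest at −0.36 ± 0.09 (SE; limma adjusted p = 0.0515). When each gene was represented by 1 probe, C1qc did pass (limma adjusted p = 0.0424), as did 3.83% of the genes tested that way. Signal is given throughout as log2 of the processed intensity minus the array's 75th percentile, and a difference is KO chimera minus control. Testing required signal well above background in 8 or more of the 16 mice, which 10 of the 12 complement probes, from 8 of the 9 genes, met. Among all 35141 probes tested, 2.61% were called at an adjusted p under 0.05 (1.82% lower and 0.794% higher). The 9 genes were chosen with earlier results of these data known, so the shares and medians that follow describe them and test nothing. At an unadjusted p under 0.05, 5 of the 10 complement probes were past the threshold, 3 lower and 2 higher, against 19.9% of all probes (10.3% lower and 9.62% higher). At an adjusted p under 0.1 there were 3, against 7.23%. Over the 10 probes 6 were lower and 4 higher (46.3% and 53.7% of all probes), with a median difference of −0.23 (0.02 over all probes) and a median size of 0.28 (0.13 over all probes). The 6 lower probes include C1ra probe 1 and C3ar1, which were dim and above background on more control than KO chimera arrays. Both turned positive with normexp background correction, so their direction is not settled. KO chimera and control mice overlapped in every complement probe, where 0.831% of all probes did not overlap. In whole tissue, fewer cells of a type and less RNA per cell cannot be told apart.

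**Figure D1:**
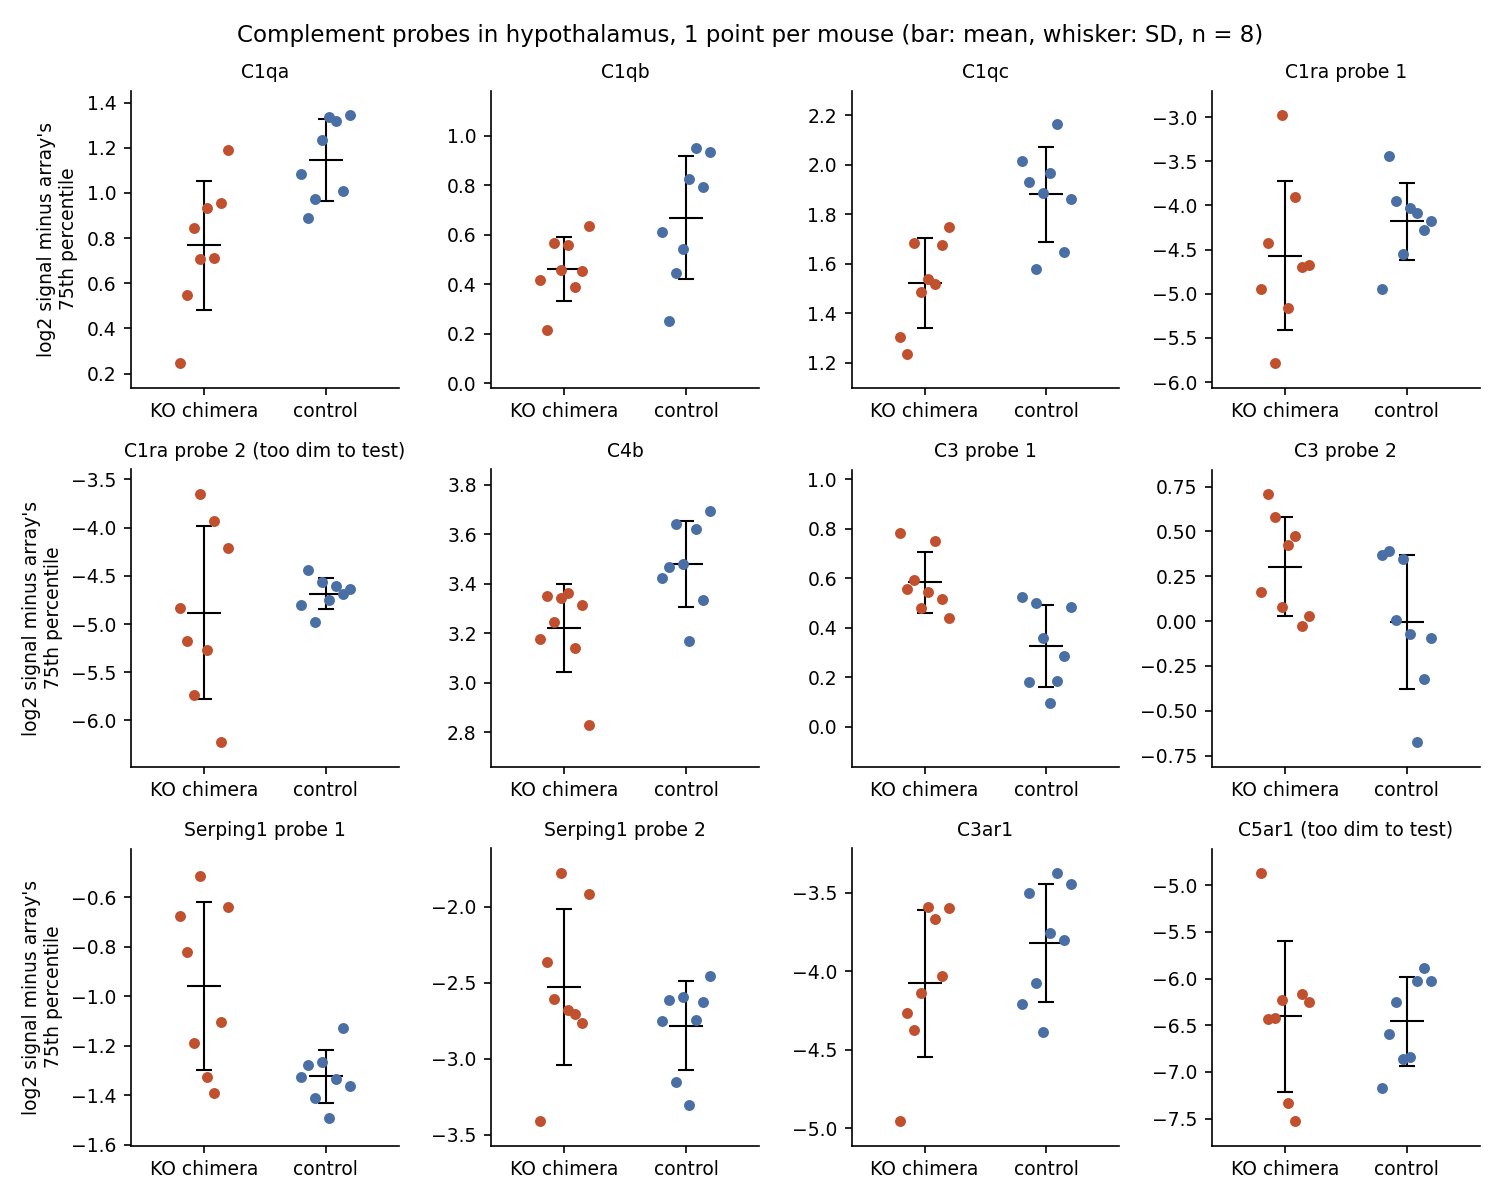
Log2 signal minus the array's 75th percentile for the 12 complement probes, 1 point per mouse, with KO chimera left of control in each panel (bar, mean; whisker, SD; n = 8 each). The axes differ between panels and do not start at 0. In C1qa and C1qc 5 KO chimeras lay below every control, and in C3 probe 1 and Serping1 probe 1 5 KO chimeras lay above every control.

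**Figure D2:**
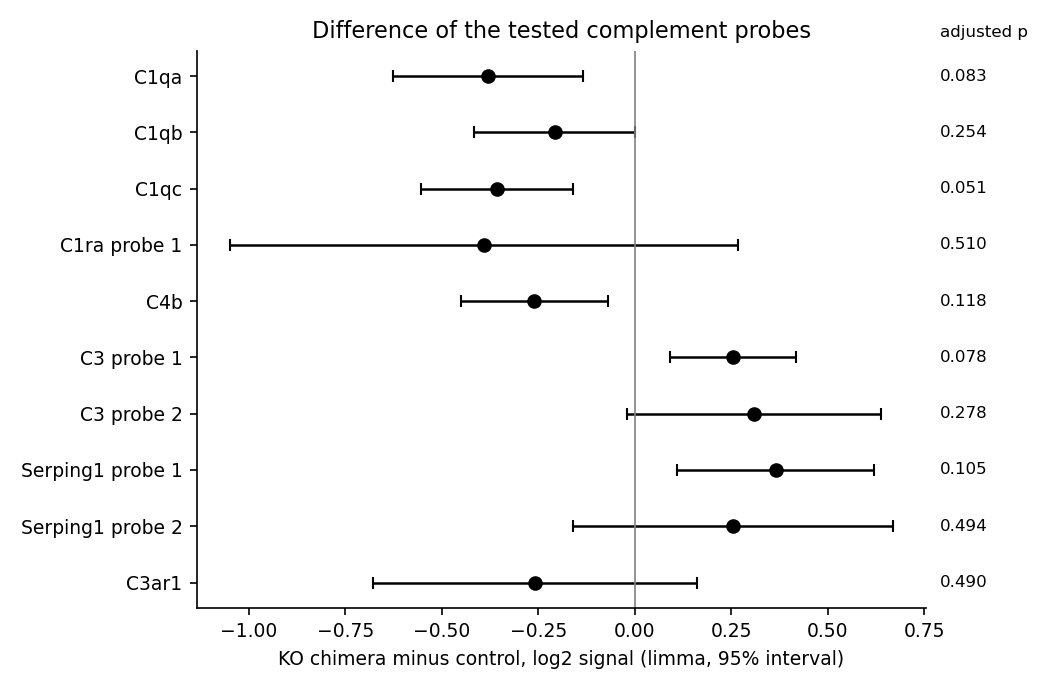
Difference of each tested complement probe, KO chimera minus control in log2 units, with its 95% interval and the limma adjusted p at the right. The interval lay below 0 for C1qa, C1qc and C4b and above 0 for C3 probe 1 and Serping1 probe 1, while 0 probes had an adjusted p under 0.05.

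C1qa encodes the A chain of C1q. Its signal in KO chimeras had a lowest, median and highest value of 0.25, 0.78 and 1.19, against 0.89, 1.16 and 1.34 in controls. Thus 7 of 8 KO chimeras lay below the control median and 5 below the lowest control, while the highest KO chimera lay within the control range. The means were 0.77 ± 0.29 in KO chimeras and 1.15 ± 0.18 in controls (SD, n = 8 each), a difference of −0.38 ± 0.12 (SE; 95% interval −0.63 to −0.13) or −23.1% in signal. The limma adjusted p was 0.0831, and the exact permutation p over all 12870 assignments of the mice, two-sided and for this probe alone, was 0.00606. KO chimera replicate 1 was the lowest mouse and also had the fewest spots above background of all arrays. Without it the difference was −0.31 (limma adjusted p = 0.109).

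C1qb encodes the B chain. KO chimeras measured 0.21, 0.46 and 0.63 (lowest, median and highest) and controls 0.25, 0.70 and 0.95. All 8 KO chimeras lay below the control median, but controls were spread more widely and only 1 KO chimera lay below the lowest of them. The difference was −0.21 ± 0.10 (SE; 95% interval −0.42 to 0.00; limma adjusted p = 0.254; exact permutation p = 0.0556).

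C1qc encodes the C chain. KO chimeras measured 1.24, 1.53 and 1.75 (lowest, median and highest) and controls 1.58, 1.91 and 2.16. All 8 KO chimeras lay below the control median and 5 below the lowest control. The means were 1.52 ± 0.18 in KO chimeras and 1.88 ± 0.19 in controls (SD, n = 8 each). The difference of −0.36, or −21.9% in signal, had a 95% interval of −0.55 to −0.16 (exact permutation p = 0.00218). The array carries this probe in 10 spots, whose SD within an array had a median of 0.0656, below the SD of 0.18 to 0.19 between mice of a group. Over the 33 alternative settings the difference ranged from −0.42 to −0.29, and the limma adjusted p, from 0.0252 to 0.418, was under 0.05 in 7 of them. A fixed block for the slide gave a difference of −0.38 (limma adjusted p = 0.0928).

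**Figure D3:**
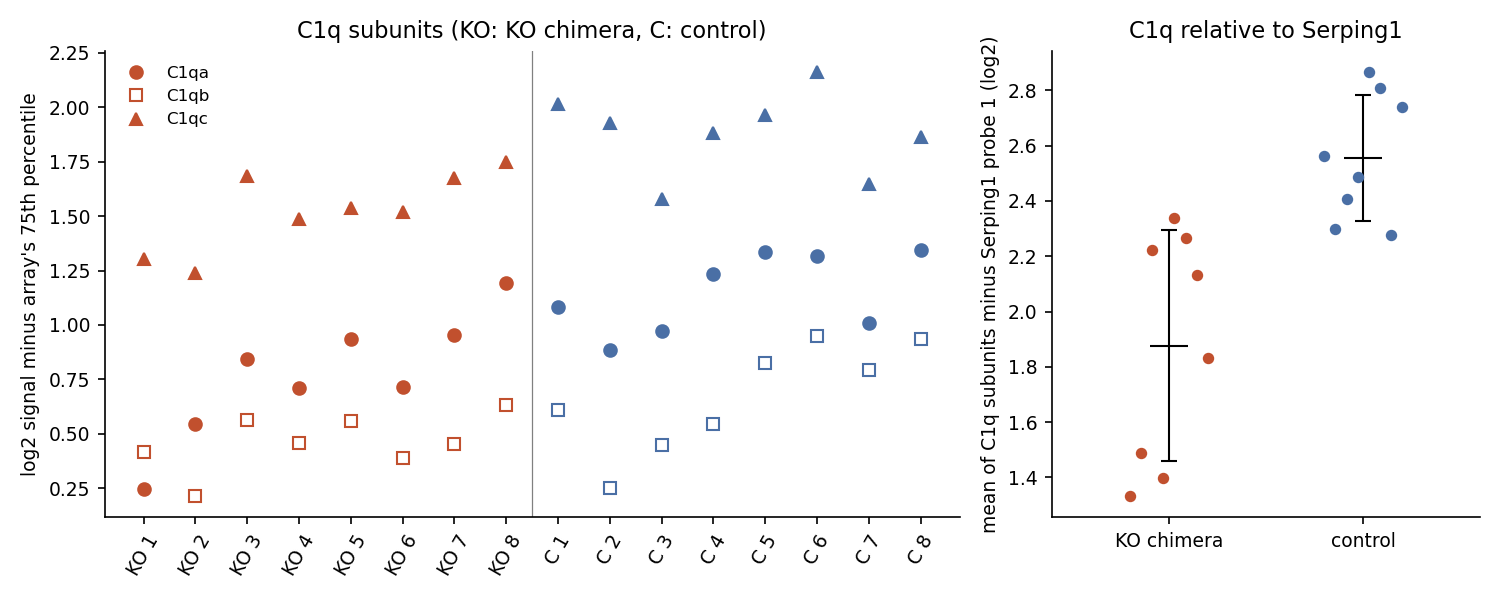
Left, log2 signal of C1qa, C1qb and C1qc in each mouse, KO chimera replicates 1 to 8 and then control replicates 1 to 8; right, the mean of the 3 C1q probes minus Serping1 probe 1, 1 point per mouse (bar, mean; whisker, SD; n = 8 each). On the right 7 of 8 KO chimeras lay below the lowest control, at 1.33 to 2.34 in KO chimeras and 2.28 to 2.87 in controls. Serping1 probe 2 was not used there.

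The 3 C1q genes varied together between mice of the same group to a degree that did not pass adjustment over the 45 pairs of tested probes. After removing the group means, C1qa correlated with C1qb (Pearson r = 0.645, Spearman rho = 0.724, n = 16; permutation p = 0.00232 for r and 0.00377 for rho, adjusted p = 0.0574 and 0.102) and r was 0.781 without the 2 mice farthest from the median of C1qa. C1qa and C1qc gave r = 0.708 and rho = 0.606 (n = 16; permutation p = 0.00255 and 0.0192, adjusted p = 0.0574 and 0.270), and r = 0.631 without the 2 farthest mice. C1qb and C1qc gave r = 0.453 (permutation adjusted p = 0.572).

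C1ra encodes the protease C1r, which C1q activates, and its signal lay near background. C1ra probe 1 measured −5.78, −4.69 and −2.98 in KO chimeras (lowest, median and highest) and −4.94, −4.13 and −3.44 in controls. It was above background on 3 of 8 KO chimera arrays and 6 of 8 control arrays, and its difference was −0.39 ± 0.31 (SE; limma adjusted p = 0.510). Over the alternative settings (single slides aside) the difference ranged from −0.80 with quantile normalization to 0.043 with normexp background correction, so its direction is not settled. C1ra probe 2 was above background on 3 and 4 arrays and was not tested, with means of −4.88 in KO chimeras and −4.69 in controls.

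C4b encodes complement C4, the first substrate of the activated C1 complex. KO chimeras measured 2.83, 3.28 and 3.36 (lowest, median and highest) and controls 3.17, 3.47 and 3.69. All 8 KO chimeras lay below the control median. The means were 3.22 ± 0.18 in KO chimeras and 3.48 ± 0.17 in controls (SD, n = 8 each). The difference was −0.26 ± 0.09 (SE; 95% interval −0.45 to −0.07) or −16.5% in signal. The limma adjusted p was 0.118 and the exact permutation p 0.00901.

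C3 encodes the central component on which the activation pathways converge, and both of its probes were higher in KO chimeras in value. C3 probe 1 measured 0.44, 0.55 and 0.78 in KO chimeras (lowest, median and highest) and 0.10, 0.32 and 0.52 in controls. All 8 KO chimeras lay above the control median and 5 above the highest control. The difference was 0.26 ± 0.08 (SE; 95% interval 0.09 to 0.42), or 19.4% in signal (limma adjusted p = 0.0784; exact permutation p = 0.00389). C3 probe 2, with 10 spots per array, measured −0.02, 0.29 and 0.71 in KO chimeras and −0.67, −0.03 and 0.39 in controls. Here too all 8 KO chimeras lay above the control median, with a difference of 0.31 ± 0.16 (SE; limma adjusted p = 0.278). The SD between mice was 0.28 in KO chimeras and 0.37 in controls, against a median SD of 0.0635 between its spots. Within a group the C3 probes followed each other weakly across mice (r = 0.317, n = 16).

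Serping1 encodes C1 inhibitor, the regulator that shuts off C1r and C1s. Serping1 probe 1 measured −1.39, −0.96 and −0.51 in KO chimeras (lowest, median and highest) and −1.49, −1.33 and −1.13 in controls. KO chimeras were more widely spread, with an SD of 0.34 against 0.11 in controls (n = 8 each). Of the KO chimeras 7 lay above the control median and 5 above the highest control. The difference was 0.37 ± 0.12 (SE; 95% interval 0.11 to 0.62), or 28.8% in signal (limma adjusted p = 0.105; exact permutation p = 0.0132). Serping1 probe 2 measured −3.41, −2.64 and −1.78 in KO chimeras and −3.31, −2.69 and −2.46 in controls. The KO chimeras spanned the whole control range, and the difference was 0.25 ± 0.20 (SE; limma adjusted p = 0.494), and over the alternative settings it ranged from 0.13 with the slide as a fixed block to 0.43 without slide 4. It was 0.15 without KO chimera replicate 4.

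The receptor genes were dim. C3ar1, the receptor for the C3a fragment, measured −4.95, −4.08 and −3.59 in KO chimeras (lowest, median and highest) and −4.39, −3.78 and −3.38 in controls. It was above background on 5 of 8 KO chimera arrays and 7 of 8 control arrays, and its difference was −0.26 ± 0.20 (SE; limma adjusted p = 0.490). That value rested on slide 4: without it (an alternative chosen after seeing the data) the difference was −0.08 (limma adjusted p = 0.836). Over the alternative settings (single slides aside) it ranged from −0.65 with quantile normalization to 0.064 with normexp background correction. C5ar1, the receptor for C5a, was well above background on 0 of 8 KO chimera arrays and 0 of 8 control arrays, so it was not tested and has no fold change.

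The C1q subunits were then set against the regulator and the receptor in the same mouse. The mean of the 3 C1q probes minus Serping1 probe 1 was 1.88 ± 0.42 in KO chimeras and 2.56 ± 0.23 in controls (log2, SD, n = 8 each), a difference of −0.68. The range was 1.33 to 2.34 in KO chimeras and 2.28 to 2.87 in controls, and 7 of 8 KO chimeras lay below the lowest control. The dimmer Serping1 probe 2, whose own difference was 0.25 ± 0.20 (SE; limma adjusted p = 0.494), was not used. The separation is therefore given for Serping1 probe 1 only. The mean of the 3 C1q probes alone was 0.92 ± 0.19 in KO chimeras and 1.23 ± 0.17 in controls, a difference of −0.31 with 4 KO chimeras below the lowest control. Against C3 probe 1 the C1q mean gave 0.33 ± 0.28 in KO chimeras and 0.90 ± 0.27 in controls, a difference of −0.57. Against the dim receptor C3ar1, above background on 5 of 8 KO chimera arrays and 7 of 8 control arrays, it gave 4.99 ± 0.37 in KO chimeras and 5.05 ± 0.35 in controls, a difference of −0.06. That value was −0.14 without KO chimera replicate 1, 0.02 without control replicate 4 and −0.18 without slide 4, so its direction is not settled. With any mouse left out the difference against Serping1 probe 1 lay between −0.75 and −0.60 and that against C3 probe 1 between −0.63 and −0.50. Without slide 4 these differences were −0.58 and −0.51. These are descriptions, since the genes were grouped with their values known, and different probes of an array have no common scale, so only the differences between the groups can be read. No test was made of them.

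The 16 arrays came from 6 slides, of which 5 carried mice of both groups, and were scanned on 2 days with 4 mice of each group on each. Within slides 1, 3, 4, 5 and 6 the C1qc difference was −0.41, −0.26, −0.56, −0.29 and −0.41, and the C1qa difference −0.31, −0.16, −1.10, −0.38 and −0.19. C3 probe 1 gave 0.15, 0.22, 0.30, 0.42 and 0.23. These 3 probes therefore kept 1 direction in all 5 slides. C1qb was lower in 4 of the 5 (−0.52 to 0.03), and so was C4b (−0.52 to 0.14). Serping1 probe 1 was higher in 4 (−0.04 to 0.68). Slides 4 and 5 held a single mouse per group, and slide 2 held only a KO chimera. By scan day, C1qc differed by −0.42 and −0.29, C1qa by −0.46 and −0.29, C4b by −0.29 and −0.23 and C1qb by −0.21 on each. C3 probe 1 differed by 0.29 and 0.22, Serping1 probe 1 by 0.54 and 0.19 and C3 probe 2 by 0.08 and 0.54. Without slide 4, C1qc differed by −0.33 (limma adjusted p = 0.0855) and C1qa by −0.28 (limma adjusted p = 0.140).

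**Figure D4:**
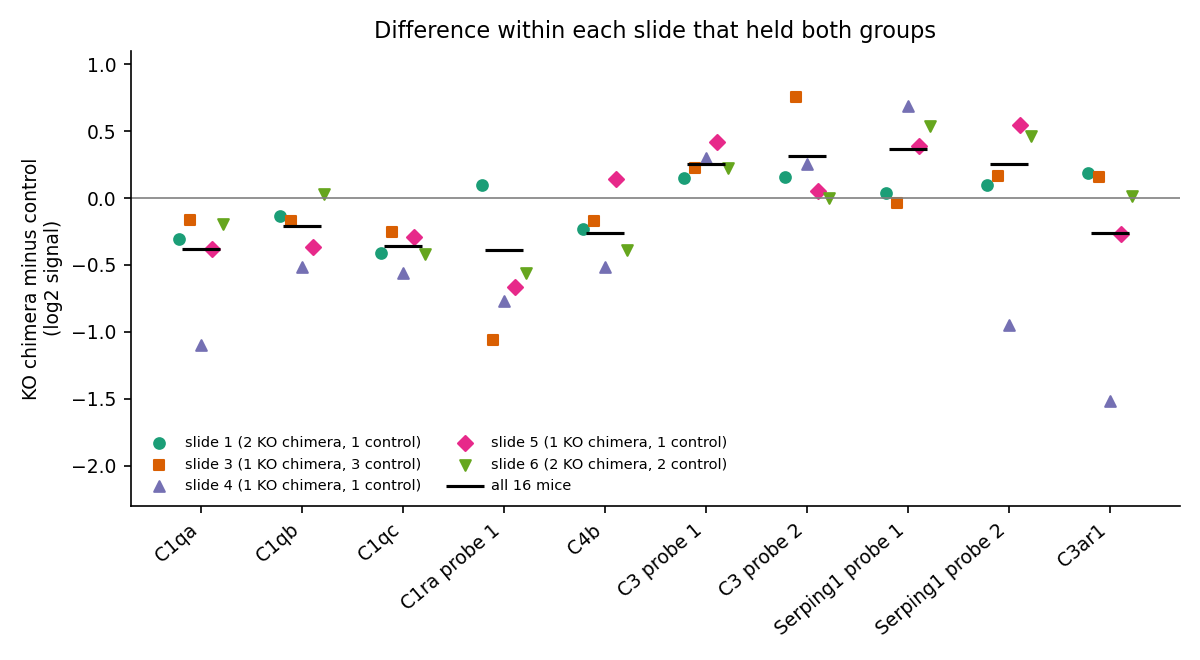
Difference of each tested complement probe, KO chimera minus control in log2 units within each slide that held both groups (symbols; slides 4 and 5 compare 1 mouse with 1 mouse) and over all 16 mice (bars). C1qa and C1qc lay below 0 and C3 probe 1 above 0 in all 5 slides, and C3ar1 ranged from −1.51 to 0.19.

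Microglia are the brain's main source of C1q, and their markers were read beside it. Of 16 markers tested 15 had a negative difference, where 46.3% of all probes did, with a median of −0.22. There were 2 called lower, where 1.82% of all probes were, and 8 had an unadjusted p under 0.05 (limma), where 19.9% of all probes did. Trem2 and Cd68, a receptor and a lysosomal protein of microglia, fell by 0.43 and 0.53 (limma adjusted p = 0.0274 for each), while Csf1r, the growth factor receptor of microglia, measured −0.00 (limma adjusted p = 0.977) and Siglech 0.11 (limma adjusted p = 0.565). The summed level of the list, in multiples of the array's 75th percentile, was 173 to 229 in KO chimeras (mean 208) and 165 to 231 in controls (mean 206), and 76.9% of it was Siglech. All 16 markers were above background in every mouse. Of 10 markers of border and infiltrating macrophages 6 were tested, 0 were called (limma; 1 at an unadjusted p under 0.05), and the median was −0.18. Their summed level was 1.25 to 1.81 in KO chimeras and 0.711 to 4.01 in controls, and Lyve1, Cd163, Ccr2 and Clec10a were below the filter. The part of these cells in the C1q differences was not tested.

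Lists for other cells and regions that the sample could hold were read beside the complement values. Their counts stand against 1.82% of all probes called lower, 0.794% called higher and 53.7% higher in sign. Of 10 astrocyte markers 1 was called lower (median −0.13), with a summed level of 358 to 539 in KO chimeras and 374 to 558 in controls. Aldoc alone made up 76.8% of that level. Of 10 markers of meninges and perivascular fibroblasts, 9 were higher and 0 were called (median 0.18; limma, 1 at an unadjusted p under 0.05), with sums of 6.36 to 14.4 in KO chimeras and 6.39 to 9.27 in controls. Of 12 thalamus markers all were lower and 1 was called (median −0.75), with sums of 29.2 to 67.1 in KO chimeras and 44.4 to 125 in controls. Of 13 oligodendrocyte markers 4 were called lower (median −0.25), with sums of 188 to 342 in KO chimeras and 242 to 363 in controls. Of 9 ependyma and tanycyte markers 8 were higher and the other was called lower (median 0.45), with sums of 16.1 to 29.4 in KO chimeras and 7.91 to 20.3 in controls. Of 9 reactive glia markers tested, Cp, which encodes ceruloplasmin, rose by 0.47 (limma adjusted p = 0.0344), and the median was 0.01. Of 7 red blood cell genes 5 were tested and all 5 had a negative difference (median −0.36), with sums of 13.6 to 22.7 in KO chimeras and 17.6 to 28.3 in controls. Of the sum 74.7% was Hba-a1. Among the red blood cell genes Hbb-b2, which encodes a beta globin, fell by 0.58 (limma adjusted p = 0.0278). Interferon-response genes, among which Serping1 is often counted, had a median of 0.04 over 14 genes with 0 called and 0 at an unadjusted p under 0.05 (limma). Of 16 markers of hypothalamus 15 were tested and 0 were called (limma; 3 at an unadjusted p under 0.05). Their sum was 413 to 796 in KO chimeras and 508 to 724 in controls, and no other tissue was measured to set it against. Of 7 choroid plexus markers 0 were called (limma; 1 at an unadjusted p under 0.05; median −0.09). Their sums were 5.85 to 48.9 in KO chimeras and 5.20 to 60.2 in controls. Of 10 markers of endothelium and mural cells 7 were higher and 0 were called (median 0.05). Of 8 neutrophil markers 2 were tested and 0 were called. The part of each of these lists in the complement values was not tested.

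Of 56 other complement genes 55 were on the array and 38 were tested. Over these 38 genes the median difference was 0.02, with 21 higher and 17 lower. There were 7 with an unadjusted p under 0.05, or 18.4% against 19.9% of all probes, and 1 was called, or 2.63% against 2.61%, so neither share stood above that of all probes. The 1 call was Itgax, which encodes CD11c, a subunit of the complement receptor CR4. Itgax ranged from −7.43 to −4.40 in KO chimeras and from −5.07 to −1.72 in controls, and was above background on 1 of 8 KO chimera arrays and 7 of 8 control arrays. It thus met the filter through the controls, and its difference of −1.88 ± 0.46 (SE; limma adjusted p = 0.0428) is given as a value and not read as a result for these genes. It did not pass without slide 4 or with the slide as a fixed block, where 0 of these genes were called. Their count was also 0 when any mouse was left out other than KO chimera replicate 7 or control replicate 1 or 2.

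By role, 0 of 4 classical pathway genes passed. The smallest p was that of C1s1, the protease that works beside C1r, at 0.32 (limma adjusted p = 0.531), and C2, the partner of C4, measured −0.02. C1s1 was dim, above background on 5 of 8 KO chimera and 4 of 8 control arrays. In the lectin pathway all 4 genes tested were higher and 0 passed. The largest difference was that of Fcnb, a ficolin that recognises sugars, at 0.82 ± 0.38 (SE; limma adjusted p = 0.237). Fcnb was dim, with means of −3.70 in KO chimeras and −4.52 in controls, and above background on 8 and 6 of 8 arrays. Masp2 was dim too, above background on 6 of 8 arrays in each group. Cfp encodes properdin, which stabilises the C3-cleaving enzyme of the alternative pathway. It averaged 0.60 ± 0.26 in KO chimeras and 0.14 ± 0.34 in controls (SD, n = 8 each), a difference of 0.47 ± 0.14 (SE; limma adjusted p = 0.0832). Hc, which encodes C5 and begins the terminal part of the cascade, measured 0.55 ± 0.22 (SE; limma adjusted p = 0.180). Among 16 regulators, each read on its probe with the highest mean, 0 passed. The smallest p was that of Csmd1, a membrane inhibitor of complement, at −0.14 (limma adjusted p = 0.305). The regulator Srpx2 measured −0.28 on that probe and −0.99 ± 0.40 on its other probe (SE; limma adjusted p = 0.430 and 0.178). Among the 8 receptors and C1q-binding proteins tested other than Itgax, 0 passed (limma; 3 at an unadjusted p under 0.05). C1qbp, a binding protein for the globular heads of C1q, measured −0.15 (limma adjusted p = 0.174). Megf10, a C1q-binding engulfment receptor of astrocytes, measured −0.17 (limma adjusted p = 0.190). C5ar2, the second receptor for C5a, measured −0.26 (limma adjusted p = 0.229) and −0.69 on its other probe (limma adjusted p = 0.304). Itgam and Itgb2, the subunits of complement receptor CR3, measured 0.12 and −0.04 (limma adjusted p = 0.598 for Itgam). The other Itgam probes gave 0.09 ± 0.19 and 0.24 ± 0.07 (SE; limma adjusted p = 0.819 and 0.0900), so the Itgam value depends on the probe.

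**Figure D5:**
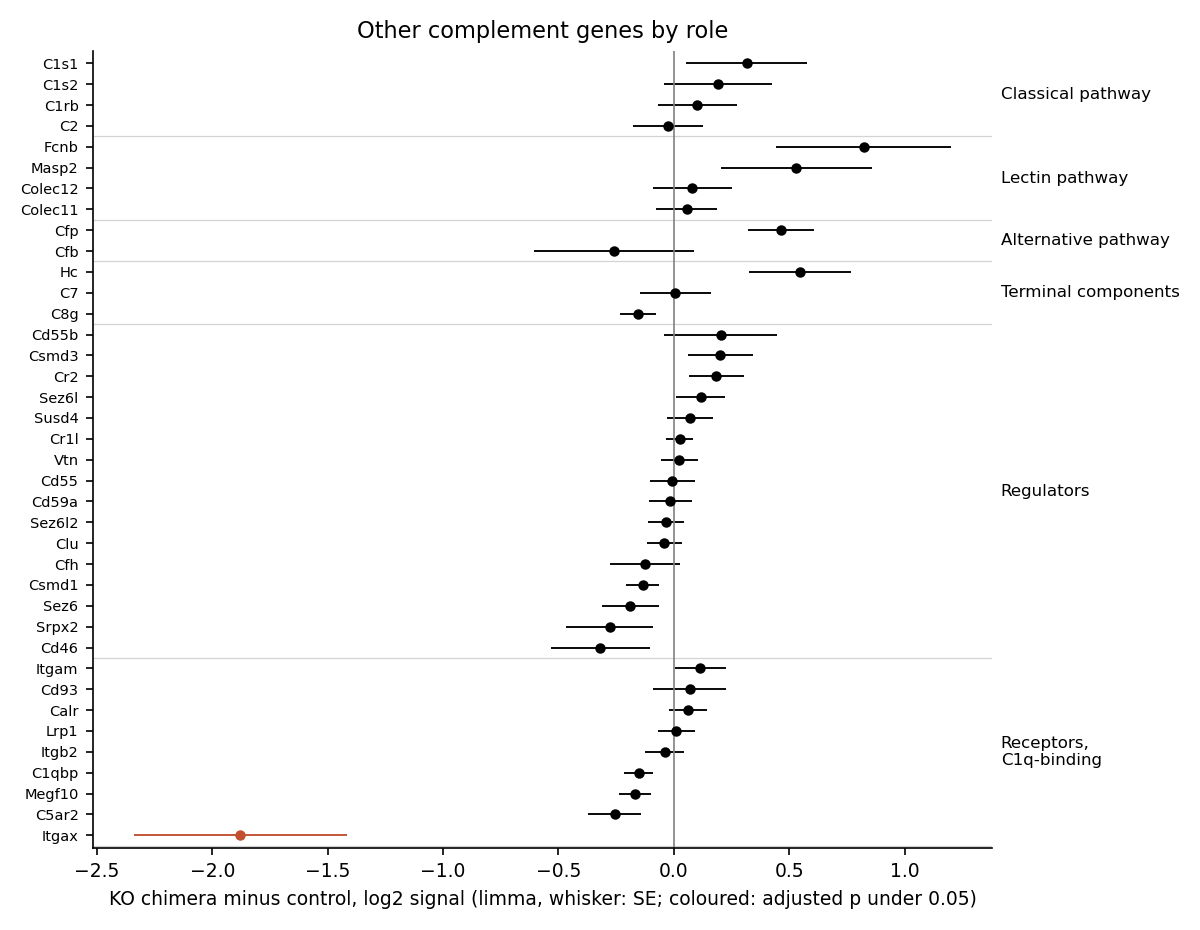
Difference of the 38 other complement genes tested, KO chimera minus control in log2 units (point; whisker, SE), grouped by role. Itgax, coloured for a limma adjusted p under 0.05, lies at −1.88 but was above background on 1 of 8 KO chimera and 7 of 8 control arrays. The others ranged up to 0.82 for Fcnb, which was also dim.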

How the data were processed

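For each array the authors deposited the scanner's processed intensity per spot, background-subtracted on a linear scale per the file headers, and the submitters' processing notes name Agilent Feature Extraction 10.7 (the headers name 10.1.1.1). The authors also deposited a table of log2 values, not centred by gene. Over the brighter spots its correlation to the scanner's log2 values was at least 0.9996 on each array. Dim spots were left out of that correlation, and 22.3% of the table's values for non-control spots sat at its floor of 2.2. How its arrays were aligned is not given in the sources used. Of 59305 non-control spots per array, 27276 to 43248 were well above background, and 0 spots of the complement probes were saturated. The number of arrays limits the precision, and each array holds a separate mouse.

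Control spots and spots marked as outliers were left out, the array's 75th percentile was subtracted from log2 of the processed intensity, and spots of a probe were averaged. The 35141 probes well above background in 8 or more of 16 mice, with at least 4 values per group, were fitted in limma 3.58.1 under R 4.3.3 (lmFit, eBayes) with Benjamini-Hochberg adjustment over all of them, with a threshold of 0.05. Probes were named by RefSeq accession (28026), symbol (3418), synonym (295) or as in the files (23942). Genes other than the members were represented by the probe with the highest mean. Named were all member probes, the other complement genes past the threshold, the one with the smallest p in each role, and the genes most correlated with C1q, C4b and Serping1. C2, Masp2, Srpx2, C1qbp, Megf10, C5ar2, Itgam, Itgb2 and the marker genes named were chosen after their values were seen. The members and lists were chosen with earlier results of these data known.

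Exact permutation tests (SciPy 1.17.1) were two-sided, and correlations used 100000 permutations of mice within groups. On simulated data of this comparison with 35035 probes, the fit called 46.3% of 67 probes shifted by 0.5 (log2), 86.6% of 67 shifted by 1 and 97.0% of 66 shifted by 2. It also called 9 of 34835 unshifted probes. The noise was drawn independently for each probe, unlike real arrays that share slides. The smallest shift exceeded the difference of every tested member probe, so the share called at those sizes was not estimated. Alternatives were other normalizations, background corrections, filters, 1 probe per gene, slide, scan day and replicate number as blocks, array weights, trend and robust settings, a threshold of 0.1, each mouse left out and, chosen after seeing the data, slide 4 left out.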

Additional observations from a re-analysis of the deposited data

Results flagged for a closer look

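C4b in KO chimera replicate 8 measured 2.83, against 3.14 in the nearest of the other KO chimeras, a gap that took up 0.585 of the group's whole range. It was the only sample to stand apart in this way among 24 groups examined (12 probes in KO chimera and control mice), where chance marks about 1 group in 20. Without that mouse the C4b difference was −0.20 (limma adjusted p = 0.153).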

How the results depend on the processing

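The C1q, C4b, C3 and Serping1 probes kept their direction in each of 31 to 33 alternative settings (single slides aside), with C1qb between −0.27 and −0.15, C4b between −0.30 and −0.19, C3 probe 1 between 0.21 and 0.32 and Serping1 probe 1 between 0.19 and 0.54. C1ra probe 1 (0.043) and C3ar1 (0.064) turned positive with normexp background correction. Both were lowest with quantile normalization, at −0.80 and −0.65. The number of complement probes past the threshold was 0 and became 1 (C1qc) with a strict filter (above background in all 16 mice), with 1 probe per gene, with the slide as a random block and with array weights (limma adjusted p = 0.0297, 0.0424, 0.0395 and 0.0485). It was 2 with trend and robust settings (C1qc 0.0252, C1qa 0.0496), 3 at a threshold of 0.1, and 0 to 1 with each mouse left out; C1qc passed without KO chimera replicate 8 (limma adjusted p = 0.0493) or control replicate 3 (0.0410). Of all probes 917 were called. The count was 532 with quantile normalization, 219 with normexp (22 higher, 197 lower), 551 with the deposited table, 444 with no filter, 1518 with the strict filter, 252 and 1460 with the slide as a fixed and random block, 1454 with array weights, 1490 with trend and robust settings, 2539 at 0.1, 0 within each scan day (limma; 3796 and 4810 at an unadjusted p under 0.05) and 277 to 1112 with each mouse left out. The share of calls that were higher was 30.4%; it was 68.8% with the percentile over detected probes, 51.6% with no filter and 41.3% with the replicate block. The other complement genes had 1 call, which became 0 with normexp, no filter, the strict filter, the slide as a fixed block, within either day and without slide 4, 2 at a threshold of 0.1, and 0 to 1 with each mouse left out. Replicate numbers do not pair the mice (same-number correlations −0.0669 to 0.226); with them as a block 702 probes, 0 complement probes (C1qc limma adjusted p = 0.109) and 0 other complement genes were called. Causes were not tested. Signal near background limits C1ra, C3ar1, C5ar1, Itgax, C1s1, Masp2, Fcnb and Serping1 probe 2.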

Other observations

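Across the 16 mice, after removing group means, the genes whose values ran closest to the mean of the 3 C1q probes among 35035 probes were Zdhhc3 (Pearson r = 0.92), Srprb (0.91), Chst2 (0.91), 1700025G04Rik (0.90) and Cox7a2l (0.88). Without the 2 mice farthest from the median of the C1q mean these correlations were 0.88, 0.89, 0.87, 0.89 and 0.84. For C4b they were Pogz (0.80), Slc16a12 (0.77), Zfp944 (0.77), Eny2 (0.77) and Zwint (0.76), and without the 2 farthest mice Slc16a12 was at 0.38. For Serping1 probe 1 they were Gm5535 (0.88), Usp18 (0.79), Ifitm1 (0.77), Wfikkn2 (0.75) and Crygd (0.75). Within KO chimeras the Serping1 correlations were 0.92, 0.86, 0.85, 0.86 and 0.84, and within controls 0.41, 0.82, 0.50, 0.19 and −0.05. These were picked as the highest of all probes, share arrays and scaling with the complement probes, and were given no test.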
